A study of Rattus norvegicus with 90 samples.

Results

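Kidney was compared with heart in rats that received no toxicant. The samples were chosen by their labels alone, as the vehicle-treated kidneys and the vehicle-treated hearts at 8 and 24 h after injection together, which gave 10 kidneys and 10 hearts among the 90 samples of the series. Of the 65166 targets in each deposited table, the 40071 rat transcripts with Ensembl identifiers were analysed. The series was made to examine how a liver toxicant, thioacetamide, changes RNA in liver, kidney, and heart, and its vehicle groups allow the organs themselves to be set side by side.

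All animals were male Sprague-Dawley rats, an outbred strain, bought when 10 weeks old and fitted with a jugular vein catheter before the experiment. The vehicle was saline, 3 ml/kg, given by intraperitoneal injection, and at each time 5 kidneys and 5 hearts came from vehicle rats. Rats of the 8 h group were injected in the morning and kept without food, whereas rats of the 24 h group were injected in the afternoon, fed, and fasted for the last 8 h, so that time after injection cannot be told apart from the hour of injection and the feeding schedule. The treated kidneys and hearts used below came from rats given 25 mg/kg (low dose, 10 of each organ) or 100 mg/kg (high dose, 10 of each organ). Whole kidneys and hearts were powdered, so that each library averages all the cell types and regions of its organ. In such bulk samples, fewer cells of a type and less RNA per cell cannot be told apart.

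The kidney filters blood in its glomeruli, and its tubules recover water, salts, sugars, and amino acids from the filtrate by means of many transporters that differ from segment to segment. The heart is built mainly of striated muscle cells that contract without pause. These cells hold many mitochondria and obtain much of their energy by oxidizing fatty acids. Both organs also contain vessels, connective tissue, and immune cells. None of the tables used here pairs the transcripts with genes (0 of 40071 identifiers matched), so the labels could not be checked against marker genes, no pathway could be described, and only 4 transcripts are named, by identifier.

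Total estimated counts were 20531004 to 30098569 in the 10 kidneys and 16849390 to 31559509 in the 10 hearts, and these ranges overlapped. By the rank correlation of TPM (an abundance scaled by transcript length and by the library's sum) over the tested transcripts, each of the 20 vehicle libraries was most like another library of its own organ. Spearman's rho was 0.908 to 0.981 over the 45 pairs of kidneys, 0.965 to 0.981 over the 45 pairs of hearts, and 0.602 to 0.668 over the 100 pairs of a kidney with a heart. Transcripts are not independent replicates, so these values describe the libraries and carry no test. Kidney 8 h replicate 2 (library MS-100) stood apart from the other kidneys, with a median rho of 0.941 to them, where the other 9 had medians of 0.955 to 0.969. Without it, the 36 remaining kidney pairs lay between 0.936 and 0.981.

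Transcripts higher in kidney and higher in heart were similar in number, and the largest differences were more often on the kidney side. Of the 40071 transcripts, 7883 had no count in any of the 20 libraries, and 20434 passed the low-count filter and were tested. A transcript was called where edgeR's quasi-likelihood test gave an adjusted p-value up to 0.01 and the fold change, as a natural log, was 0.6 or more in size (0.866 on the log2 scale). This held for 10076 transcripts (49.3%). Of these, 5273 (25.8% of those tested) were higher in kidney and 4803 (23.5%) were higher in heart. The split rested on the scaling, since 52.3% of the calls were on the kidney side with TMM scaling, 50.1% with upper-quartile scaling, and 67.3% with total counts alone, which moved the median of all transcripts by 0.41 log2 units toward kidney. With limma on log2(TPM + 1), 68.4% of the calls were on the kidney side and the median moved by 0.24. With all targets in the fit and the calls counted among transcripts, the majority turned to heart, with 4893 calls (47.9%) on the kidney side and 5331 on the heart side, and the median moved by -0.12. Without kidney 8 h replicate 2, 10077 transcripts were called.

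Large differences made up a small part of the calls. Among the transcripts called higher in kidney, 2303 differed by less than 2 log2 units, 1762 by 2 to 5 units, and 1208 by 5 units or more, that is, 32-fold or more. Among those called higher in heart, the corresponding numbers were 2517, 1681, and 605. A difference of 5 units or more was thus called for 1813 transcripts (8.87% of those tested), 1208 toward kidney (5.91%) and 605 toward heart (2.96%). The excess toward kidney at this size was present with TMM, upper-quartile, and total-count scaling and in both limma fits. It was not counted with all targets in the fit.

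The remaining 10358 tested transcripts (50.7%) were not called. For 4243 of them the adjusted p-value of edgeR's test passed but the difference was under the size limit. For 6394 transcripts (31.3% of those tested), an approximate 95% interval of the log2 fold change lay wholly within the size limit. A difference of the called size was thus outside this interval. For 2515 others the adjusted p-value did not pass and the interval reached beyond the limit. In these transcripts, a difference of that size was neither shown nor bounded at this depth and spread.

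The samples of the organs often did not overlap at all. On the scale of CPM (counts per library size) after TMM scaling, every kidney was above every heart, or the reverse, for 9824 of the tested transcripts (48.1%), 5146 with kidney above (25.2%) and 4678 with heart above (22.9%). Of the transcripts called higher in kidney, 4251 of 5273 (80.6%) had no overlap, and of those called higher in heart, 3851 of 4803 (80.2%). Among differences of 5 log2 units or more, 1123 of 1208 toward kidney and 565 of 605 toward heart had no overlap. The plot of levels and sizes shows both classes well clear of the diagonal band that holds the other transcripts.

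Some of these transcripts were not seen in the other organ. Of the 1208 transcripts at least 5 log2 units higher in kidney, 191 had 0 counts in all 10 hearts. Against a floor of 3 counts over the group, 178 of these 191 were at least 32-fold higher in kidney, and the bounds ran from at least 21.2-fold to at least 18273-fold. Of the 605 transcripts higher in heart, 85 had 0 counts in all 10 kidneys, 84 of them were at least 32-fold higher in heart, and the bounds ran from at least 27.9-fold to at least 11233-fold. At these depths a count of 0 limits the level and does not show that a transcript is absent. The bounds cover counting error only.

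Detection by TPM gave a related picture. At least 1 TPM was reached in every kidney by 13499 transcripts, in every heart by 12885, and in all 20 libraries by 11032. At least 1 TPM in every kidney together with less than 0.1 TPM in every heart was found for 283 transcripts. They were 2.1% of the transcripts at 1 TPM or more in every kidney, whereas the reverse pattern made up 0.784% of those at 1 TPM or more in every heart. No test was made between these shares.

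Traces of the other organ's transcripts were present in each library. Of the 605 heart-high transcripts, 49 to 68 per kidney library were at 1 TPM or more, and 288 had 0 counts in at least 5 of 10 kidneys. Of the 1208 kidney-high transcripts, 51 to 117 per heart library were at 1 TPM or more, and 704 had 0 counts in at least 5 of 10 hearts. As a share of all transcript TPM, the kidney-high transcripts held 8.67% to 12.7% (median 11.1%) in kidneys and 0.0324% to 0.0621% in hearts. The heart-high transcripts held 11.1% to 13.6% (median 12.6%) in hearts and 0.0354% to 0.0522% in kidneys. These shares follow from how the transcripts were chosen in the same libraries. In libraries that had no part in the choice, the kidney-high transcripts held a median of 10.6% in low-dose kidneys and 9.76% in high-dose kidneys, and the heart-high transcripts held 12.8% in low-dose hearts and 12.3% in high-dose hearts. In the other organ, the heart-high transcripts held 0.0471% to 0.134% in low-dose kidneys and 0.0427% to 0.0683% in high-dose kidneys. The kidney-high transcripts held 0.0324% to 0.0862% in low-dose hearts and 0.039% to 0.065% in high-dose hearts.

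The heart carried this share on fewer transcripts. Of the 605 heart-high transcripts, 295 had a mean of at least 10 TPM in heart, 86 of at least 100 TPM, and 22 of at least 1000 TPM. Of the 1208 kidney-high transcripts, 628, 164, and 20 reached these levels in kidney. The median length was 1906.5 bases for the kidney-high and 2159 bases for the heart-high transcripts, against 2122 bases over all tested transcripts. Lengths are those listed in the deposited tables.

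The 4 transcripts with the highest mean TPM among those at least 5 log2 units apart without overlap, a pair for each organ, were examined in every library. ENSRNOT00000022074, which is 239 bases long, had 4616 TPM in the lowest kidney, a median of 6630, and 12655 in the highest. In hearts it had 22.1, 28.6, and 38.8 TPM. Thus it was abundant in each kidney and present at a far lower level in each heart, with a wide gap between the organs. Its log2 fold change, kidney minus heart, was 7.58 (SE 0.18, adjusted p = 4.9e-19 by edgeR's quasi-likelihood test).

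ENSRNOT00000007806 (705 bases) had 4376, 6497, and 10795 TPM in the lowest, median, and highest kidney. In hearts it ranged from 0, in 2 libraries, to 11.6 TPM with a median of 0.207. Most hearts thus had a trace or none, and a pair of 24 h hearts had more than the others. The log2 fold change was 11.89 (SE 0.79, adjusted p = 1.3e-11 by edgeR's quasi-likelihood test), and it was 13.01 without the highest heart, heart 24 h replicate 5. It was 15.45 in the 8 h samples and 10.76 in the 24 h samples, and the test of the difference between times did not pass (adjusted p = 1.0 in edgeR's quasi-likelihood test).

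ENSRNOT00000050368 (480 bases) showed the opposite pattern, with 13073, 16537, and 18978 TPM in the lowest, median, and highest heart. In kidneys it ranged from 0, in 5 libraries, to 9.48 TPM, with a median of 0.0571. All hearts were far above all kidneys. The log2 fold change was -14.10 (SE 0.73, adjusted p = 1.8e-13 by edgeR's quasi-likelihood test). The kidney with the highest level was 8 h replicate 2, the library that stood apart, and without it the value was -15.86. Without both kidney libraries numbered above 90 (MS-100 and MS-103) it was -17.43.

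ENSRNOT00000006184 (946 bases) had 10447, 12347, and 12832 TPM in the lowest, median, and highest heart, and 0, 0.805, and 8.32 TPM in kidneys, where 1 library was at 0. The hearts were close to one another, with a coefficient of variation of 6.96%, while the kidneys ranged from 0 to a trace. The log2 fold change was -12.72 (SE 0.78, adjusted p = 3.4e-12 by edgeR's quasi-likelihood test), and -13.33 without the kidney libraries numbered above 90.

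**Figure D1:**
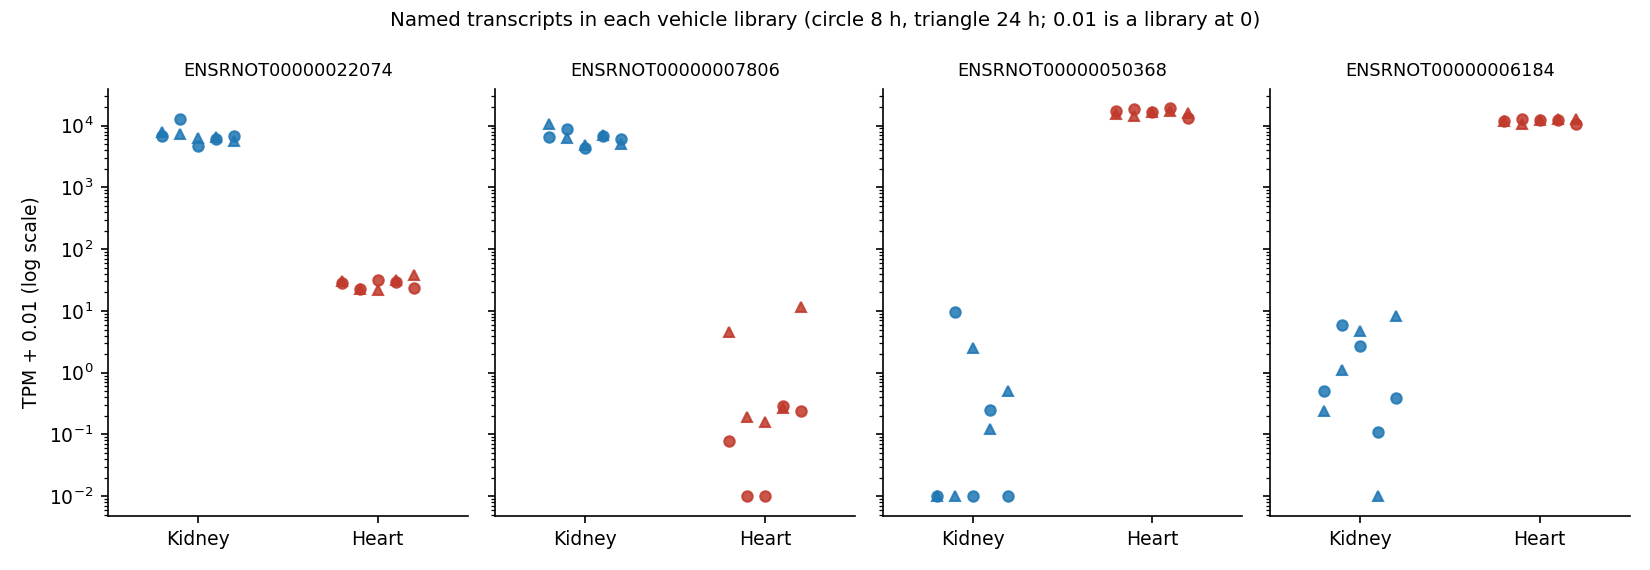
TPM plus 0.01 (log scale) of the 4 named transcripts in each of the 10 vehicle kidneys (blue) and 10 vehicle hearts (red), with circles for 8 h and triangles for 24 h and points at 0.01 for libraries at 0. Each panel shows no overlap between the organs, and the low organ varies far more on this scale than the high organ except for ENSRNOT00000022074.

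The same 4 transcripts were read in libraries that did not choose them. ENSRNOT00000022074 had a median of 5605 TPM in low-dose kidneys and 35.3 TPM in low-dose hearts, and 6683 and 33 TPM at the high dose. ENSRNOT00000007806 had medians of 4012 and 0.14 TPM at the low dose, and 5084 and 0.12 TPM at the high dose. ENSRNOT00000050368 had medians of 16252 TPM in low-dose hearts and 0.189 TPM in low-dose kidneys, and 16002 and 1.70 TPM at the high dose. ENSRNOT00000006184 had medians of 12321 and 1.33 TPM at the low dose, and 11715 and 3.01 TPM at the high dose. The order of the organs was therefore the same for all 4 at each dose, with log2 fold changes of 6.87, 10.18, -12.13, and -11.74 at the low dose and 6.90, 12.54, -12.91, and -11.99 at the high dose. In the same order, the highest library of the lower organ had 51, 17.9, 45.6, and 33.7 TPM at the low dose. At the high dose it had 56.1, 3.87, 14.8, and 11.2 TPM, and in vehicle 38.8, 11.6, 9.48, and 8.32 TPM. In 10 vehicle livers, the medians were 15.2 TPM for ENSRNOT00000022074 and 0 TPM for the other 3.

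The few most abundant transcripts were shared by the organs, and the sharing was smaller further down the order. Of the 10 with the highest mean TPM, 9 were shared, of the first 100, 54 were shared, and of the first 1000, 573. The 1 transcript among the 10 of heart but not of kidney was ENSRNOT00000050368, which ranked 15109 in kidney. The 9 shared transcripts were between 69 and 1545 bases long and had mean levels of 11407 to 36443 TPM in kidney and 16719 to 63427 TPM in heart. The shortest is shorter than a sequenced read, and TPM is scaled by length, so its level is uncertain. The shares of TPM below that include it carry the same limit.

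Although shared, these 9 were not at equal levels. All 9 passed the adjusted p-value of edgeR's test in the heart direction and 7 of them also passed the size limit. Among all tested transcripts 23.5% were called higher in heart, and among the 104 with a mean of 1000 TPM or more, 50% were. Their log2 fold changes ran from -1.52 to -0.73 with a median of -1.0, and in 8 of 9 every heart was above every kidney. The direction of all 9 held under each scaling tried, with values of -1.11 to -0.31 when total counts alone were used. Together they took 16.8% to 27.8% (median 21.1%) of the transcript TPM in kidneys and 27.7% to 37.4% (median 34.9%) in hearts. The lowest heart was thus just under the highest kidney.

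The share of called transcripts was highest at 100 TPM or more and changed little below that level. By mean TPM over the 20 libraries, 50.4% of 4174 transcripts under 1 TPM were called, 49.2% of 9380 at 1 to 10 TPM, 47.2% of 6000 at 10 to 100 TPM, 58.8% of 776 at 100 to 1000 TPM, and 65.4% of 104 at 1000 TPM or more. In the highest class, 50% were higher in heart and 15.4% were higher in kidney, whereas in the class of 100 to 1000 TPM 32.9% were higher in kidney and 25.9% in heart. These shares were not tested against each other. Of the 100 most abundant transcripts of heart, 65 were called higher there and 2 higher in kidney. Of the 100 most abundant of kidney, 40 were called higher there and 19 higher in heart.

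The kidney libraries also spread their TPM over more transcripts. The number at 1 TPM or more was 16081 in the lowest kidney, with a median of 16672 and 17047 in the highest, against 14857, 15273, and 15589 in hearts. The organs did not overlap, and the mean difference was 1359 transcripts (p = 2e-05, the smallest the 100000 resamples can give, and 3.5e-05 adjusted over 7 measures, two-sided permutation test). At 5 TPM or more the kidneys also lay above the hearts without overlap, with 9813 to 10884 against 8266 to 9117 transcripts and the same p-values. Within 8 h and within 24 h, the organs did not overlap either, and both counts gave the smallest p-value that 5 against 5 samples allow (p = 0.00794, exact permutation test).

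The heart libraries had more of their TPM on a few transcripts. The 10 most abundant transcripts of each library held 19.6% to 29.3% of its transcript TPM in kidneys (median 24.4%) and 29.9% to 39.4% in hearts (median 36.8%), without overlap. The first 100 held 45.1% to 58.5% in kidneys (median 50.5%) and 62.7% to 67.7% in hearts (median 63.6%), also without overlap. Both differences had p = 2e-05 and 3.5e-05 after adjustment (two-sided permutation test, n = 10 per organ).

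**Figure D2:**
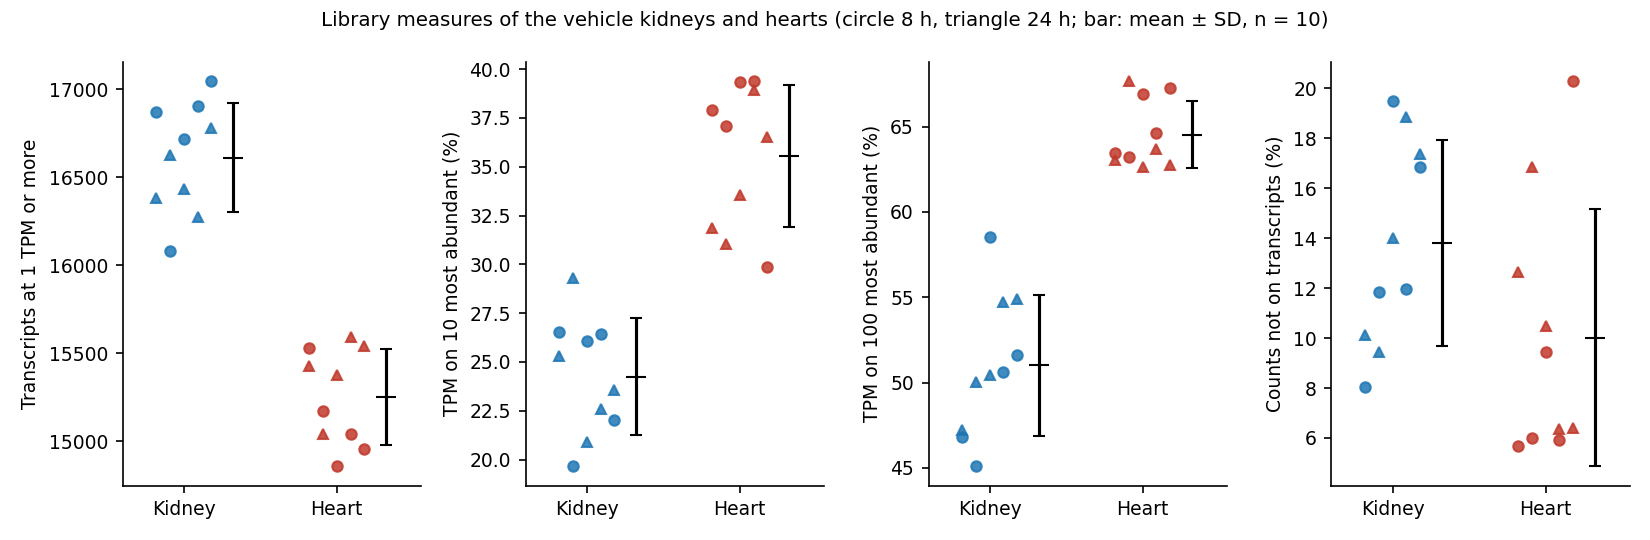
For each of the 10 vehicle kidneys (blue) and 10 vehicle hearts (red), from left to right, the number of transcripts at 1 TPM or more, the percentage of transcript TPM on the 10 and on the 100 most abundant transcripts of the library, and the percentage of estimated counts on targets that are not transcripts. Circles are 8 h and triangles 24 h, and the bars give mean and SD; the organs are separate in the first 3 panels and overlap in the fourth.

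The ranges were closer among the tested transcripts without the 9 shared ones. For this, the 9 and the 19637 untested transcripts were set aside and the rest rescaled to an equal sum in each library. Then 15554 to 16716 transcripts reached 1 TPM in kidneys and 15220 to 15845 in hearts, and the ranges overlapped. The counts above covered all 40071 transcripts, so leaving out the 9 and leaving out the untested ones cannot be told apart. The first 100 of the remaining transcripts held 30.4% to 50.8% in kidneys (median 38%) and 43.9% to 56.1% in hearts (median 46.1%), which also overlapped. The organs were not tested after this removal. Transcripts with any count were more numerous in kidneys by a mean of 1056 with overlapping ranges (adjusted p = 0.00098, two-sided permutation test). Neither total counts (adjusted p = 0.793) nor the percentage of counts on targets that are not transcripts (8.05% to 19.5% in kidneys, 5.66% to 20.3% in hearts, adjusted p = 0.1) passed the same permutation test.

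Kidneys varied more among themselves than hearts did. The biological coefficient of variation estimated by edgeR was 0.381 over the 10 kidneys and 0.243 over the 10 hearts. Over the 12811 transcripts whose mean reached 2 CPM in kidneys and in hearts, the median SD of log2 CPM was 0.258 in kidneys and 0.156 in hearts, and it was larger in kidneys for 79.9% of them. Without kidney 8 h replicate 2, the median was 0.216 and 73.1% were larger in kidneys. Over the 8 kidneys with library numbers up to 90, the median was 0.21. Among transcripts whose mean reached 2 CPM in the organ concerned, the median SD in kidneys was 0.33 over 989 of the 1208 kidney-high transcripts and 0.271 over 14893 tested ones. In hearts it was 0.224 over 507 of the 605 heart-high transcripts and 0.166 over 14423 tested ones. Differences between rats and differences between pieces of powdered organ cannot be told apart here. The vehicle kidneys had library numbers 31 to 59, besides MS-100 and MS-103, and the hearts 61 to 89. Library number and organ therefore cannot be told apart either.

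Whether the contrast between the organs depended on time was tested as an interaction over the same 20 libraries. No transcript passed in edgeR's quasi-likelihood test (0 of 20434, or 0%), where the smallest adjusted p was 0.241 and 596 transcripts (2.92%) had an unadjusted p under 0.05. DESeq2 called 18. The median standard error of the difference between times was 0.31 log2 units, so that small differences could not be seen with 5 samples in each group.

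The organ differences were also obtained at each time alone, from libraries that the other time did not use. At 8 h, 8420 of 18883 transcripts were called (44.6%), and at 24 h, 9041 of 18980 (47.6%). Of the transcripts tested at both times, 7779 were called in the same direction at both, which is 93.9% of the 8 h calls and 87.8% of the 24 h calls, and 0 were called in opposite directions. The 18485 transcripts are not independent replicates; described across them, the log2 fold changes had Pearson's r of 0.976 and Spearman's rho of 0.975, and the median absolute difference was 0.15 log2 units.

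Most vehicle calls were also made in the treated groups, which are other animals. At the low dose, 9874 of 20410 transcripts were called (48.4%), with 5193 higher in kidney (25.4%) and 4681 higher in heart (22.9%). Of the calls tested at both doses, 8940 were shared with the vehicle comparison in the same direction, or 90.3% of the vehicle and 91.7% of the low-dose calls, and 0 were opposite. At the high dose, 10352 of 20446 were called (50.6%), and 8776 were shared in the same direction, or 89.2% of the vehicle and 86.7% of the high-dose calls, while 9 were called in opposite directions. Of the differences of 5 log2 units or more, 1568 were shared with the low dose (89.8% of the vehicle and 92.7% of the low-dose calls) and 1538 with the high dose (89% and 91.3%), where 8.49% and 8.47% of the tested transcripts had such differences. Both comparisons use the same vehicle libraries and are not independent of each other.

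**Figure D3:**
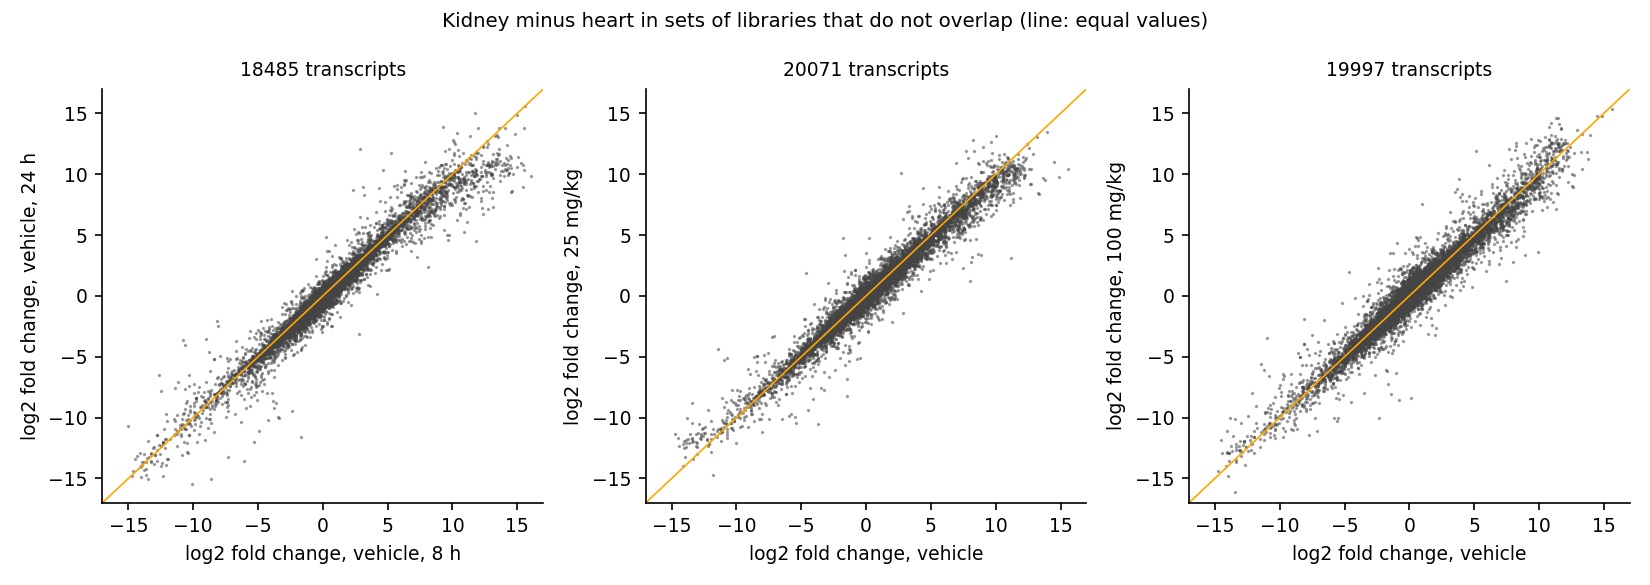
The log2 fold change of each transcript, kidney minus heart, in 2 sets of libraries that share none, from left to right vehicle 8 h against vehicle 24 h (18485 transcripts), vehicle against 25 mg/kg (20071), and vehicle against 100 mg/kg (19997). The orange line marks equal values, and the points follow it over the whole range, with more scatter at the large differences.

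With both times together, the contrast between the organs differed between the high dose and vehicle for a small share of transcripts. The fit took the dose effect of each organ as the same at 8 h and 24 h. Effects present at a single time can be diluted in it. In a test of the interaction of organ and dose over 40 vehicle and high-dose libraries, edgeR's quasi-likelihood test called 946 of 21440 transcripts (4.41%), with adjusted p-values up to 0.01 and no limit on size. In 628 (2.93%) the kidney-minus-heart difference was more toward kidney at the high dose than in vehicle, and in 318 (1.48%) more toward heart. This split was 526 and 407 with RLE size factors, 726 and 649 with DESeq2, and 536 and 426 without the libraries numbered above 90. The median absolute size was 0.70 log2 units, 283 reached 1 unit, and 79 reached 2 units. Without kidney 8 h replicate 2, 1298 transcripts were called.

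Most of these transcripts had a larger estimated change in kidney than in heart. Among the 628, the median change after the high dose was 0.61 log2 units in kidney and -0.02 in heart, and the change was larger in size in kidney for 583 (92.8%). Among the 318, the medians were -0.64 in kidney and 0.08 in heart, and the change was larger in kidney for 276 (86.8%). Over all tested transcripts, the change was larger in kidney for 65.1%. Kidneys also varied more among themselves than hearts, and a larger spread makes estimated changes larger in size. The part of spread in these shares was not tested.

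The transcripts were also sorted by the organ comparison of the low-dose libraries, which the interaction did not use. Of 5183 that were higher in kidney at the low dose, 273 (5.27%) were called in the interaction, 133 toward kidney and 140 toward heart. Of 4671 that were higher in heart, 163 (3.49%) were called, 113 toward kidney and 50 toward heart. Of 10500 called in neither direction, 504 (4.8%) were called, 377 toward kidney and 127 toward heart. No test was made between these shares.

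**Figure D4:**
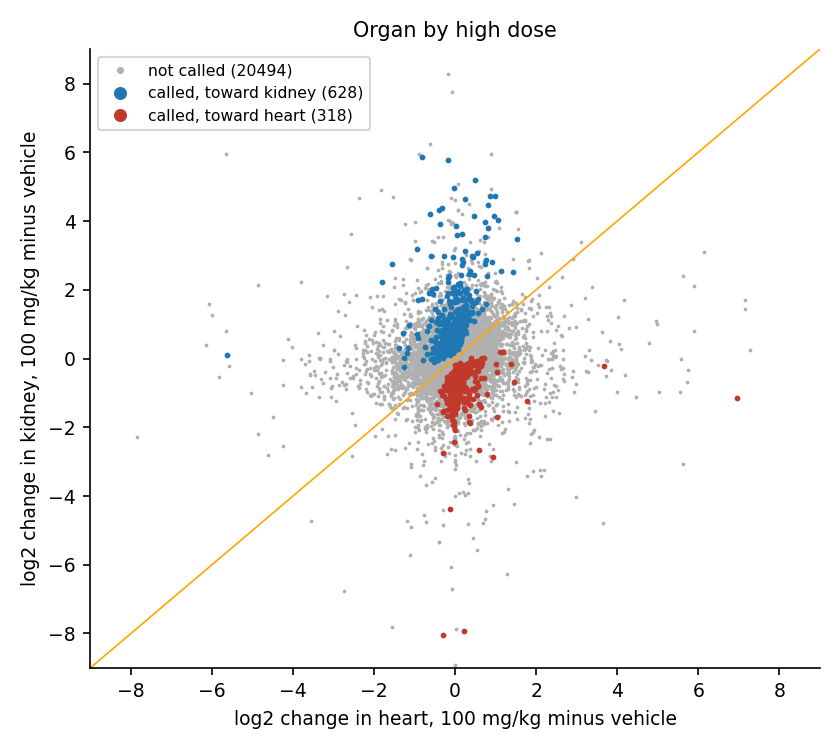
The log2 change from vehicle to 100 mg/kg in heart (horizontal) and kidney (vertical) for each of the 21440 tested transcripts, with the 628 called toward kidney in blue, the 318 called toward heart in red, and equal changes on the orange line. The called transcripts are spread mostly along the vertical axis, where the kidney changed and the heart changed little.

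Finally, the organ-high transcripts were read in the 10 vehicle livers. Of the 1208 kidney-high transcripts, 448 (37.1%) had a median of at least 1 TPM in liver, 574 (47.5%) had less than 0.1 TPM, and 179 were at or above their kidney median. Of the 605 heart-high transcripts, 39 (6.45%) had at least 1 TPM in liver, 474 (78.3%) had less than 0.1 TPM, and 4 were at or above their heart median. Among all 20434 tested transcripts, 59.1% had at least 1 TPM and 17.9% had less than 0.1 TPM in liver. One vehicle liver library, MS-1, was within 1 count of a low-dose liver library, MS-9, for 99.97% of transcripts with at least 10 counts in either, and without MS-1 the numbers were 449, 574, and 179 for the kidney-high and 39, 477, and 4 for the heart-high transcripts.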

How the data were processed

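Poly-A RNA of 90 samples was sequenced. Read pairs were pseudo-aligned by the authors in kallisto, version 0.42.2 per the submitters' processing notes, and they deposited for each of 65166 targets an estimated count, which need not be whole and is not normalized, and a TPM. The deposited TPM is scaled by target length and library over all targets, so a few abundant targets lower the TPM of all others. Of the targets, 25095 are genomic intervals and were left out. Reads that fit several similar transcripts are divided by kallisto, so the levels of such transcripts are uncertain.

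Groups were taken from the labels. After rounding to whole numbers, the estimated counts were tested in R 4.3.3 with edgeR 4.0.16 (default low-count filter by organ and time, TMM scaling, quasi-likelihood test, organ and time as terms), with Benjamini-Hochberg adjustment. Calls needed an adjusted p up to 0.01 and a fold change of 0.6 or more in size as a natural log, and a count at 5 log2 units was added. Organ by time and organ by high dose were tested as interaction terms. Each kidney and heart was treated as an independent sample: both organs were taken from the same set of rats, but the labels do not say which belong together, and p-values measure the spread between samples. No pair among the 190 vehicle pairs of libraries was near-identical (at most 4.34% of transcripts within 1 count). Library measures were compared by two-sided permutation tests with 100000 resamples in Python 3.11.15 with scipy 1.17.1, numpy 2.4.6, and pandas 2.3.3, and plots were made with matplotlib 3.10.9. Bounds for transcripts at 0 used a floor of 3 counts over the group. The SD of log2 CPM used a pseudocount of 0.5. The fits were run on simulated counts with few changed transcripts and the same dispersion for all. Such data check the code and do not show how the fits perform on a contrast as broad as kidney against heart.

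Alternatives were DESeq2 1.42.0, RLE size factors, total counts only, no filter, a filter of 5 counts in 47% of samples, no term for time, limma 3.58.1 with a TPM pseudocount of 1 or 0.1 before log2, each time alone, no limit on the fold change, all targets, no libraries numbered above 90, and each replicate left out. Upper-quartile scaling, a covariate for the percentage of counts on intervals, and blocks of libraries with numbers 30 apart were chosen after seeing the data. The transcripts named are the 2 with the highest mean TPM in each direction among those at least 5 log2 units apart without overlap, the rule for a table without gene names. Gene lists, cell type markers, and sequences depend on gene names and were not used here. The comparison and the lists were chosen with earlier results of these data known.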

Additional observations from a re-analysis of the deposited data

Results flagged for a closer look

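Values of the 4 named transcripts and of the library measures were examined by Dixon's ratio for single samples far from the rest of their group. There were 22 groups of 10 values in all. For normally distributed values chance flags about 1 in 20 such groups, a rate that need not hold for skewed levels near 0. Kidney 8 h replicate 2 (library MS-100) had the highest level of ENSRNOT00000022074 among the kidneys, 12655 TPM against 7899 in the next, and the highest of ENSRNOT00000050368, 9.48 TPM against 2.51 in the next. Heart 24 h replicate 5 (MS-81) had the highest level of ENSRNOT00000007806 among the hearts, 11.6 TPM against 4.61 in the next. The difference between kidney and heart differed between the high dose and vehicle for 946 transcripts by the test of the interaction. Targets that are not transcripts, which were left out of the tests of transcripts above except where all targets were fitted as an alternative, took 5.66% to 20.3% of the estimated counts of the 20 vehicle libraries, a share that did not pass the test between the organs (adjusted p = 0.1, permutation test) and served as a covariate in an alternative. The causes of these values were not tested.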

How the results depend on the processing

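The labels name no rat, but 8 vehicle kidneys have a heart of the same time whose library number is 30 higher. In a fit chosen after seeing the data, these pairs as a replicate block gave 9587 calls and 1865 at 5 log2 units or more, against 9779 and 1830 without the block in the same 16 libraries. The deviations of paired libraries from their group means correlated from -0.24 to 0.28 over 11270 transcripts, over 0.1 in 4 of 8 pairs, and 4 of 16 libraries correlated best with their own number, so the numbers were not taken to pair the samples. Calls between the vehicle organs ranged from 10062 to 10322 when any 1 sample was left out, differences of 5 log2 units or more from 1837 to 1881, the organ-by-time calls from 0 to 1, and the organ-by-dose calls from 818 to 1298. The range at 5 log2 units lay wholly above the 1813 of all samples. With a vehicle sample left out, more transcripts also passed the low-count filter, 20688 to 20810 against 20434. With limma on log2(TPM + 1), transcripts higher in heart fell to 2503, and differences of 5 log2 units or more fell to 472 (341 toward kidney and 131 toward heart); with log2(TPM + 0.1) there were 1179, 329 of them toward heart. A pseudocount by its construction shrinks the differences of low transcripts. For organ by time, DESeq2 called 18 (5 toward kidney, 13 toward heart) and the fit without libraries numbered above 90 called 1, toward heart. For organ by dose, a natural-log difference of at least 0.6 left 348 (224 toward kidney, 124 toward heart), and DESeq2 called 649 toward heart. At 24 h alone, the mean total count of kidneys minus hearts was -857956, the opposite sign to both times together, and neither difference passed. The causes were not tested. DESeq2 gave no adjusted p for ENSRNOT00000050368 and ENSRNOT00000006184. The named transcripts kept their direction and call in all other alternatives. Counts under about 3 over a group, and differences that are small against their standard error, are not resolved at this depth.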
